A study of Mus musculus with 4 samples.

Results

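The nuclear-encoded subunits of the mitochondrial respiratory chain and ATP synthase were followed through 24 h of TGFβ in mouse mammary epithelial cells. Members were chosen by gene symbol alone: Ndufa, Ndufb, Ndufc, Ndufs or Ndufv with a number, Sdha to Sdhd, the Uqcr genes, Cox4 to Cox8 with their suffixes, the Atp5 genes, Cyc1 and Cycs. Of 94 annotated genes that fitted, 8 pseudogenes were left out and 5 others were not analysed here (Cox6a2, Cox7b2, Cox8b, Cox8c and an additional gene ID of Atp5o). The 81 members came from 21971 genes and comprised 36 of complex I, 4 of complex II, 9 of complex III with cytochrome c1 (Cyc1), 14 of complex IV, 17 of complex V and cytochrome c itself (Cycs).

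The respiratory chain passes electrons from NADH through complex I, or from succinate through complex II, to ubiquinone, then through complex III and cytochrome c to complex IV, which reduces oxygen. Complexes I, III and IV pump protons across the inner mitochondrial membrane, and complex V, the ATP synthase, uses their return to make ATP. Complexes I, III, IV and V combine subunits encoded in the nucleus with a few encoded in mitochondrial DNA, whereas complex II is encoded wholly in the nucleus. Many nuclear subunit genes are known targets of the transcription factors NRF1, GABP (an ETS factor) and YY1, and of the coactivator PGC-1α (Ppargc1a).

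The cells were NMuMG, a line of normal murine mammary gland epithelium that loses epithelial character when given TGFβ. There were 4 libraries of RNA depleted of ribosomal RNA, 1 for each group: Vp16-TRF1ΔN cells after 24 h of TGFβ at 5 ng/ml, Vp16-TRF1ΔN cells at 0 h, TRF1ΔN cells after 24 h of TGFβ at 5 ng/ml, and TRF1ΔN cells at 0 h. All cells overexpressed a mutated human TRF1, a telomere-binding protein, which in the Vp16-TRF1ΔN cells was fused to the Vp16 transcription activation domain to raise telomeric RNA of the TERRA type. All grew in DMEM with fetal bovine serum and insulin, no library came from cells without a construct, and whether a line is 1 clone was not stated. No 24 h library without TGFβ was given, so effects of TGFβ and of a day in culture cannot be told apart. The study asked how raised TERRA alters the epithelial-to-mesenchymal response.

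Libraries held 35418985 to 45983910 counts in genes. The epithelial keratin genes Krt8 and Krt18 were abundant in every library (65274 to 88184 and 107999 to 165060 counts). Epcam had 4 to 18 counts and Esrp1 0 to 3, where Epcam was not called and Esrp1 was too low to be tested. Of the other epithelial markers, Krt18 (0.56) and Krt8 (0.30) rose with TGFβ on the log2 scale, and Krt19 (-3.42), Cdh1 (-1.46) and Tjp1 (-0.47) fell, with adjusted p of 0.00398 to 0.0235 (edgeR). The 7 measured markers of epithelial cells summed to 6485 CPM at 24 h and 6463 at 0 h in Vp16-TRF1ΔN cells, and to 6464 at 24 h and 6763 at 0 h in TRF1ΔN cells (CPM is the count relative to the TMM-scaled library size). Markers of fibroblasts (3 measured) summed to 11.8 CPM at 24 h and 1.88 at 0 h in Vp16-TRF1ΔN cells, and to 21.2 at 24 h and 1.32 at 0 h in TRF1ΔN cells, with Dcn at 0 to 2 counts. Markers of muscle cells (4 measured, nearly all Tnnt2) summed to 70.6 CPM at 24 h and 12.6 at 0 h in Vp16-TRF1ΔN cells, and to 118 at 24 h and 12.4 at 0 h in TRF1ΔN cells, with Myh7 at 1 to 3 counts. Of the 2 muscle markers tested, 1 rose (2.92 on the log2 scale) and the other, at -1.52, did not pass (adjusted p = 0.0554, edgeR). Markers of immune cells lay within 2.95 to 3.51 CPM. Markers of endothelial cells (2 measured) summed to 0.759 CPM at 24 h and 0.139 at 0 h in Vp16-TRF1ΔN cells, and to 1.26 at 24 h and 0.126 at 0 h in TRF1ΔN cells, with Cdh5 called higher and Pecam1 at 1 to 3 counts. Markers of adipocytes (2 measured) summed to 0.0292 CPM at 24 h and 0.603 at 0 h in Vp16-TRF1ΔN cells, and to 0.0238 at 24 h and 0.378 at 0 h in TRF1ΔN cells, with Cidec called lower and Adipoq at 0 to 1 counts. The part of these marker shifts in the subunit results was not tested.

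Promoter sequences of 4 members are shown because they span the results: Sdhd and Ndufa5 fell most with TGFβ, Cox8a fell most within complex IV, and Uqcrc1 was the one member called higher. Each window runs from 250 bases before to 50 bases after the gene's start in RefSeq (mouse build GRCm38.p6), written 5′ to 3′ along the gene. Capitals mark matches on either strand to the NRF1 motif GCGCANGCGC or the ETS motif CCGGAA.
Sdhd (chr9:50603800-50604099, minus strand): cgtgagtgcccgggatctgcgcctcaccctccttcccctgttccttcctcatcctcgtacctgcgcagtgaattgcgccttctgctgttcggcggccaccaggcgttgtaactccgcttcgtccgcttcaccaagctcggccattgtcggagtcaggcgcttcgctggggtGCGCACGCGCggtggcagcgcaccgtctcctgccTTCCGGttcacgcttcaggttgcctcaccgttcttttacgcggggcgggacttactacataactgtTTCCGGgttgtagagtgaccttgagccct
Ndufa5 (chr6:24527641-24527940, minus strand): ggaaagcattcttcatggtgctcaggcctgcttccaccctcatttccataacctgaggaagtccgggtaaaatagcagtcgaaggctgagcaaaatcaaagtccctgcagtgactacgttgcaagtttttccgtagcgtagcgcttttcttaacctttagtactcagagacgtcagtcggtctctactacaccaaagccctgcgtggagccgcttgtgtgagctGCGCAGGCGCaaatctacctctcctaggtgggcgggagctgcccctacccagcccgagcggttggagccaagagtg
Cox8a (chr19:7217567-7217866, minus strand): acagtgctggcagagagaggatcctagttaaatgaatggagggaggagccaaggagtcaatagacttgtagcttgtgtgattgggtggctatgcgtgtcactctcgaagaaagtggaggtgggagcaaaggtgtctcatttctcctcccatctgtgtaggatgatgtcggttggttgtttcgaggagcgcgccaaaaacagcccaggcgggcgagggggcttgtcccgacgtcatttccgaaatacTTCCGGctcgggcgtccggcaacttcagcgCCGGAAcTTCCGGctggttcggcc
Uqcrc1 (chr9:108936398-108936697, plus strand): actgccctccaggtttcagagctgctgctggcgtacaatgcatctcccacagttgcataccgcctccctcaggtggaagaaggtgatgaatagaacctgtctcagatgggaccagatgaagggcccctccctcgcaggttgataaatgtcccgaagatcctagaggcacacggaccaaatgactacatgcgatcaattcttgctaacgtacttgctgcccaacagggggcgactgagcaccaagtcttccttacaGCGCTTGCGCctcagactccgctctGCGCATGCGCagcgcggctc
The Sdhd window held 1 NRF1 and 2 ETS matches, the Ndufa5 window 1 NRF1 match and the Cox8a window 3 ETS matches. The Uqcrc1 window held NRF1 matches at 2 places, of which the palindromic one counts on both strands. Both places lie after the gene's start, as do the NRF1 matches of Atp5g3 and Atp5o, which were called lower. The NRF1 matches shown for Sdhd and Ndufa5 lie before it. A further Ndufa5 window, not shown, held the same match, also before its start. Any relation of the motifs to the direction of change was not tested.

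Such matches were common among members. Symbols matched a RefSeq promoter for 65 of the 81 members, in 70 windows. The NRF1 motif occurred in 25.7% of the members' windows against 4.60% of all 32851 promoter windows. The ETS motif occurred in 37.1% against 14.9%, and the YY1 motif AAGATGGC in 12.9% against 2.75%. None of the 3 motifs contains another, and both strands were searched. Between members called lower with TGFβ and the other tested members, the NRF1 motif occurred in 25.6% and 26.9% of windows, the ETS motif in 41.9% and 30.8%, and the YY1 motif in 16.3% and 7.69%. A match describes letters in the window and is not evidence of binding.

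Most members were expressed at moderate to high level. The mean level over the 4 libraries had a median of 82.2 CPM among members, against 22.4 CPM among all tested genes, and 71 members exceeded 10 CPM. Cox4i2 and Cox6b2 had at most 1 count in any library and did not pass the filter on low counts, which left 79 members tested. Counts were not corrected for sequence shared between genes: 30 members had more than 10% of their 50-base words in another gene, and 21 had exons that overlap another gene's, while the strand setting of the counting was not given in the sources used here. Atp5g2 (all of its words in other genes), Atp5l (84.8%), Atp5h (66.6%), Atp5g1 (66.0%), Ndufa12 (53.8%), Cox7c (53.0%) and Atp5o (50.3%) shared most, and their values are uncertain for that reason.

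The summed members took less of each library after TGFβ. Their share of all gene counts was 0.841% at 24 h against 1.11% at 0 h in Vp16-TRF1ΔN cells, and 0.883% at 24 h against 1.16% at 0 h in TRF1ΔN cells. The exact (Clopper-Pearson) 95% binomial intervals, in that order, were 0.8376 to 0.8437%, 1.107 to 1.114%, 0.8799 to 0.8855% and 1.161 to 1.167% and cover counting error only. In scaled units the sum was 8688 CPM at 24 h against 10807 CPM at 0 h in Vp16-TRF1ΔN cells, and 9091 CPM at 24 h against 11233 CPM at 0 h in TRF1ΔN cells. Both 24 h libraries therefore lay below both 0 h libraries. In RNA from a whole culture, fewer cells of a kind and less RNA of these genes per cell cannot be told apart.

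After 24 h of TGFβ the RNA of most subunits was modestly lower, with the smallest share of calls in complex IV. The average response of the lines was tested with edgeR's quasi-likelihood test in an additive model of line and TGFβ, with p adjusted over all 14305 genes tested and a threshold of 0.05. Of 79 members tested, 47 fell, 1 rose and 31 did not pass. Over all genes tested, 25.4% fell and 23.1% rose (3631 and 3305 genes), while with upper-quartile scaling 3274 fell and 3959 rose. Of genes that averaged at least 10 CPM, 29.7% fell and 26.1% rose. The members' median log2 change was -0.31, a level 19.1% lower at 24 h, against -0.0085 over all genes tested, and 71 of 79 members had a negative change. The spread behind these p-values comes from 4 libraries, with 1 residual degree of freedom, and from the spread shared across genes, and may be technical. By DESeq2's Wald test on the same model 32 members fell and 0 rose, all 32 among the 47. Over all genes tested, DESeq2 called 2629 lower and 2370 higher. An unadjusted p under 0.05 in the edgeR fit was seen for 54 of the 79 members and 8106 of all 14305 genes.

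**Figure D1:**
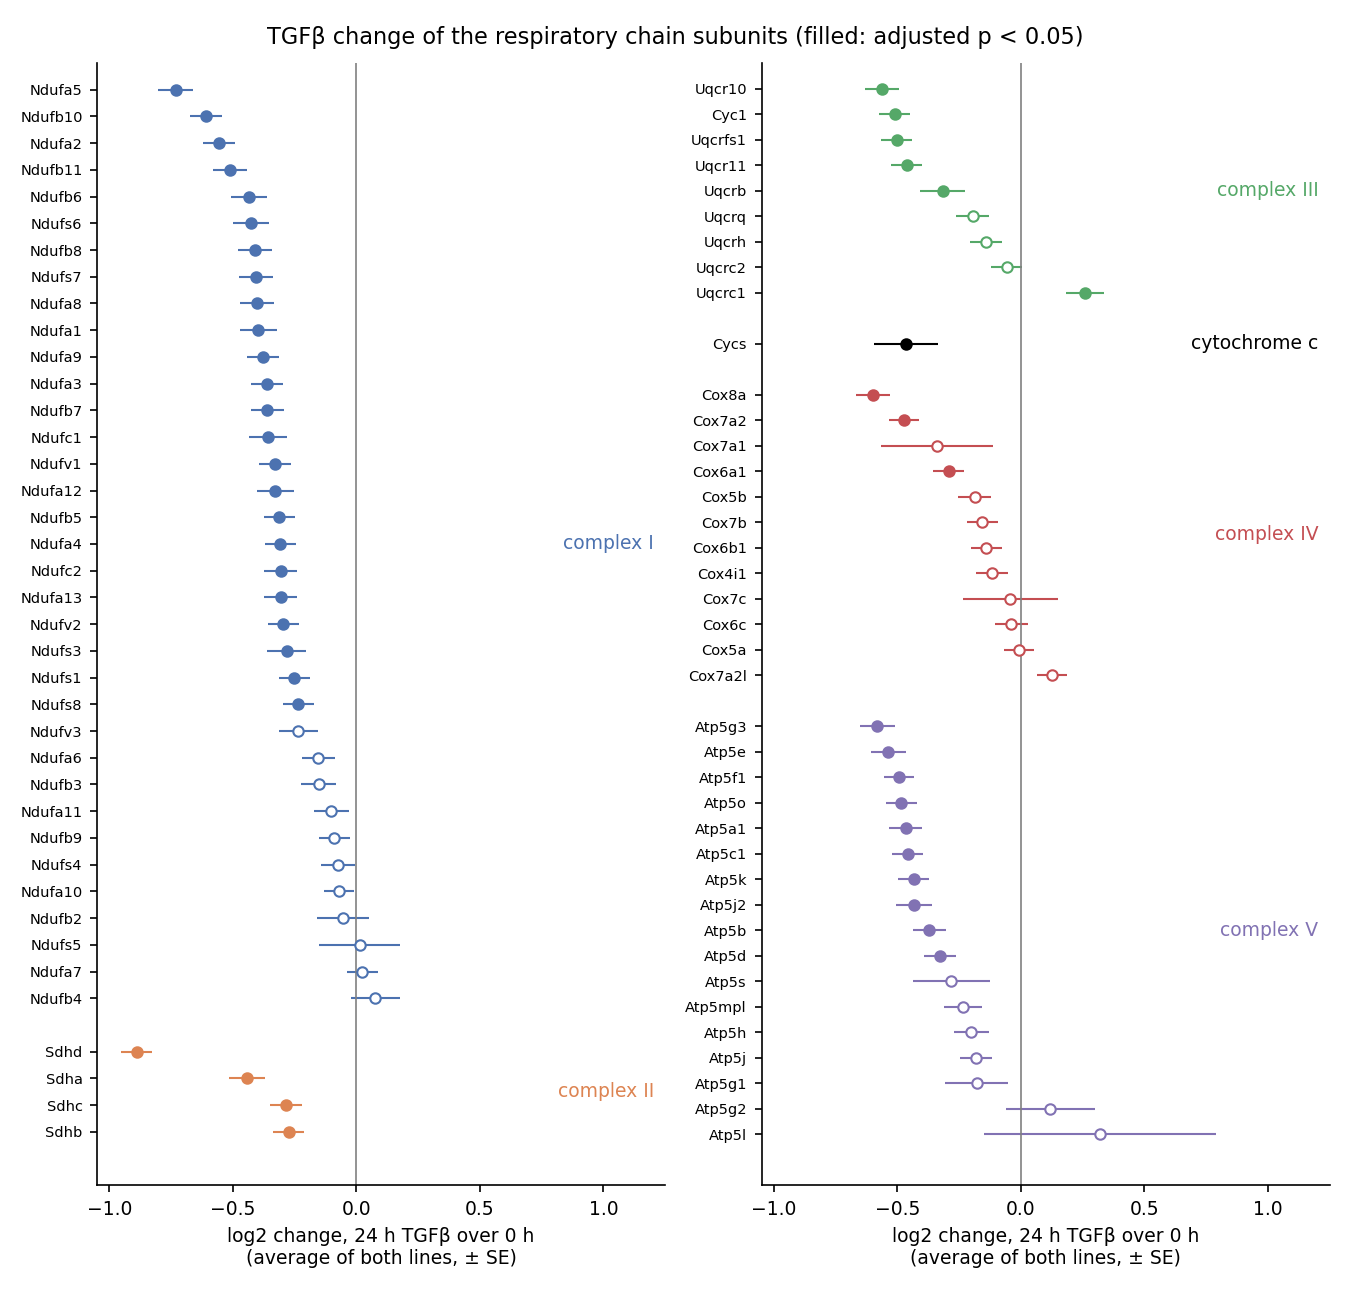
The average log2 change (24 h TGFβ over 0 h) of 78 of the 79 tested members is plotted with its SE from the additive edgeR fit, grouped by complex; filled points passed an adjusted p of 0.05. The points of complexes I, II, III and V lie mostly left of 0, with Sdhd lowest at -0.89, while 9 of the 12 complex IV points are open.

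The libraries themselves separated by time for most members. In 63 of 79 tested members both 24 h libraries were below both 0 h libraries, and in 5 both were above, among them Ndufa7, Uqcrc1, Cox7a2l and Atp5g2. Over all genes tested the first pattern held for 38.6%. All 47 members called lower were lower at 24 h in each line, with counting intervals of the ratio that excluded 1 in both. As the calls came from the same 4 libraries, this describes them and gives no separate support.

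Complex II, succinate dehydrogenase, which belongs to the citrate cycle as well as the chain, had all 4 subunits called lower, with a median of -0.36. Sdhd (chr9:50596357-50603812, minus strand), one of the membrane anchors that bind haem and ubiquinone, had 123 CPM at 24 h against 223 at 0 h in Vp16-TRF1ΔN cells, and 122 at 24 h against 229 at 0 h in TRF1ΔN cells. Its 24 h level was nearly equal in the lines and below either 0 h level, and its log2 change of -0.89 ± 0.063 (SE, adjusted p = 0.00166) was the lowest of all members. Sdha, the flavoprotein that oxidises succinate, had 250.5 CPM at 24 h against 321 at 0 h in Vp16-TRF1ΔN cells, and 217 at 24 h against 313 at 0 h in TRF1ΔN cells, with a log2 change of -0.44 ± 0.074 (SE, adjusted p = 0.0107). Sdhc, the other membrane anchor, had 109 CPM at 24 h against 129.5 at 0 h in Vp16-TRF1ΔN cells, and 107 at 24 h against 133 at 0 h in TRF1ΔN cells. Sdhb, the iron-sulphur subunit that carries electrons from Sdha to the anchors, had 79.3 CPM at 24 h against 97.0 at 0 h in Vp16-TRF1ΔN cells, and 87.5 at 24 h against 105 at 0 h in TRF1ΔN cells. Both 24 h libraries of Sdhc and Sdhb lay below both 0 h libraries, with smaller changes of -0.28 ± 0.064 (SE, adjusted p = 0.0232) and -0.27 ± 0.062 (SE, adjusted p = 0.0243), and neither passed DESeq2's test (adjusted p = 0.0814 and 0.110). Within this complex the change of Sdhd was the lowest; differences between subunits were not tested.

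**Figure D2:**
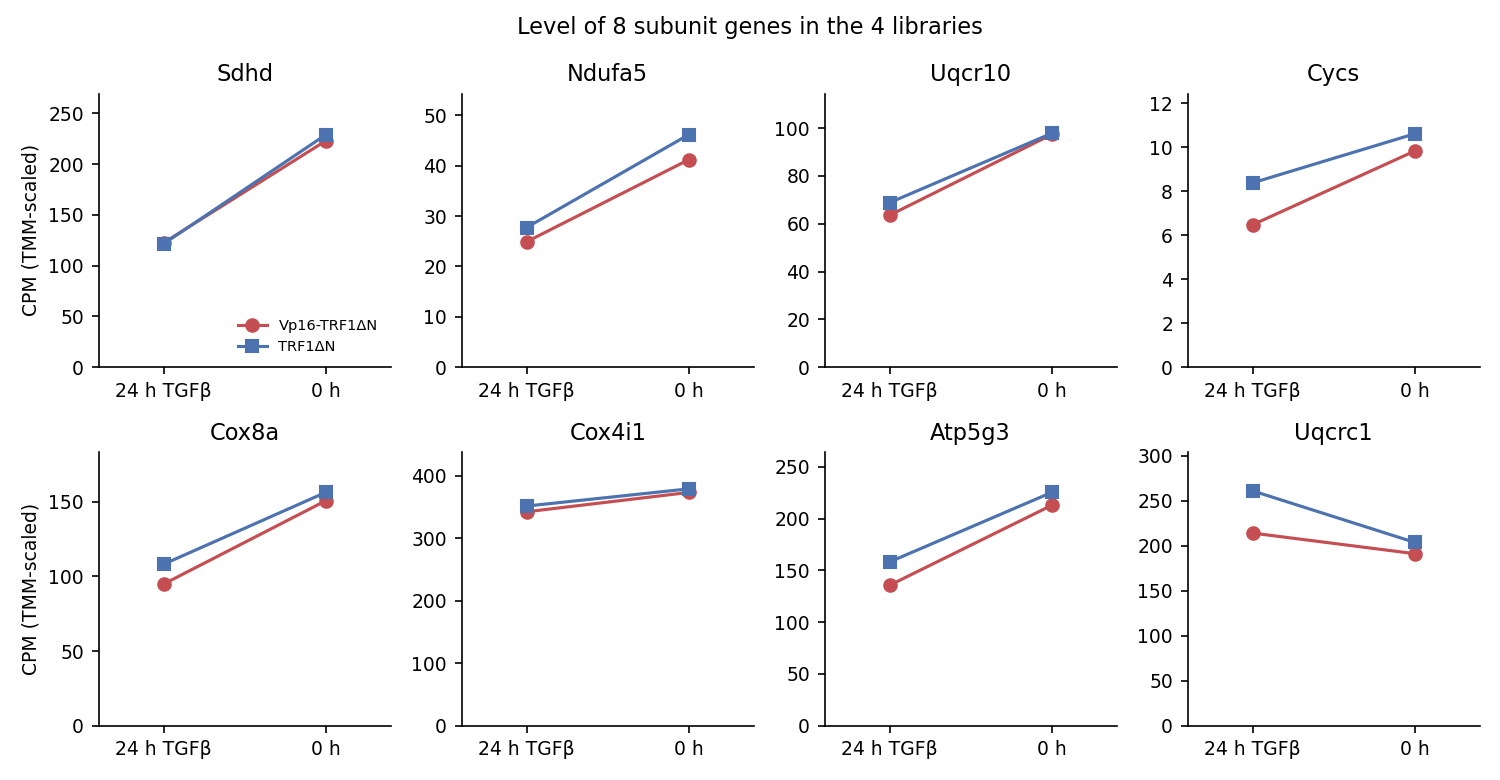
CPM of 8 members in each library, with the 24 h library left of the 0 h library and 1 line per cell line (circles Vp16-TRF1ΔN, squares TRF1ΔN). Sdhd, Ndufa5, Uqcr10, Cycs, Cox8a and Atp5g3 were lower at 24 h in both cell lines, Cox4i1 differed little, and Uqcrc1 was higher at 24 h.

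In complex I, NADH dehydrogenase, 24 of 36 members fell, none rose and 12 did not pass, with a median log2 change of -0.31. DESeq2's test called 14 of these 24 lower. It did not call Ndufv2, Ndufs1, Ndufa12, Ndufs8, Ndufs3, Ndufb5, Ndufa1, Ndufa13, Ndufc1 or Ndufc2 (DESeq2 adjusted p of 0.0629 to 0.229). In the NADH-oxidising arm, Ndufv1, which holds the flavin that takes electrons from NADH, had 130.2 CPM at 24 h against 169 at 0 h in Vp16-TRF1ΔN cells, and 149 at 24 h against 181 at 0 h in TRF1ΔN cells, a log2 change of -0.33 ± 0.066 (SE, adjusted p = 0.0167). Ndufv2, an iron-sulphur subunit beside it, had 87.6 CPM at 24 h against 108 at 0 h in Vp16-TRF1ΔN cells, and 88.3 at 24 h against 108 at 0 h in TRF1ΔN cells. Ndufs1, the large iron-sulphur subunit of that arm, had 178 CPM at 24 h against 211 at 0 h in Vp16-TRF1ΔN cells, and 179 at 24 h against 213 at 0 h in TRF1ΔN cells. In all 3 both 24 h libraries lay below both 0 h libraries. Ndufv2 and Ndufs1 had nearly equal 24 h levels in the lines, with log2 changes of -0.30 ± 0.062 (SE, adjusted p = 0.0192) and -0.25 ± 0.061 (SE, adjusted p = 0.0298).
Accessory subunits of the same arm were called in part. Ndufa2 had 45.9 CPM at 24 h against 67.4 at 0 h in Vp16-TRF1ΔN cells, and 48.3 at 24 h against 71.3 at 0 h in TRF1ΔN cells, a log2 change of -0.56 ± 0.065 (SE, adjusted p = 0.00439). Ndufs6, a small zinc-binding subunit, had 25.2 CPM at 24 h against 34.4 at 0 h in Vp16-TRF1ΔN cells, and 26.9 at 24 h against 35.6 at 0 h in TRF1ΔN cells, a log2 change of -0.43 ± 0.074 (SE, adjusted p = 0.0117). Ndufa12 had 45.6 CPM at 24 h against 54.5 at 0 h in Vp16-TRF1ΔN cells, and 47.6 at 24 h against 62.7 at 0 h in TRF1ΔN cells, a log2 change of -0.33 ± 0.074 (SE, adjusted p = 0.0240). All 3 fell, with no overlap between times. Ndufs4, whose loss causes Leigh syndrome, did not pass: it had 69.2 CPM at 24 h and 70.1 at 0 h in Vp16-TRF1ΔN cells, and 67.6 at 24 h and 73.9 at 0 h in TRF1ΔN cells, and its log2 change was -0.074 ± 0.069 (SE, adjusted p = 0.417). Ndufv3 did not pass either, with -0.23 ± 0.080 (SE, adjusted p = 0.0701).

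The part of complex I that hands electrons to ubiquinone held the lowest member of the complex. Ndufa5 (chr6:24518666-24528013, minus strand), an accessory subunit there, had 24.9 CPM at 24 h against 41.2 at 0 h in Vp16-TRF1ΔN cells, and 27.7 at 24 h against 46.2 at 0 h in TRF1ΔN cells. Both 24 h libraries lay far below both 0 h libraries, and the log2 change was -0.73 ± 0.072 (SE, adjusted p = 0.00305). Core subunits of this part fell as well. Ndufs7, an iron-sulphur subunit, had 36.4 CPM at 24 h against 48.8 at 0 h in Vp16-TRF1ΔN cells, and 37.5 at 24 h against 49.2 at 0 h in TRF1ΔN cells, a log2 change of -0.41 ± 0.069 (SE, adjusted p = 0.0110). Ndufs8, also an iron-sulphur subunit, had 74.6 CPM at 24 h against 88.0 at 0 h in Vp16-TRF1ΔN cells, and 77.3 at 24 h against 90.9 at 0 h in TRF1ΔN cells, a log2 change of -0.24 ± 0.062 (SE, adjusted p = 0.0368). Ndufs3, which assembles early, had 24.7 CPM at 24 h against 29.2 at 0 h in Vp16-TRF1ΔN cells, and 25.2 at 24 h against 31.5 at 0 h in TRF1ΔN cells, a log2 change of -0.28 ± 0.077 (SE, adjusted p = 0.0400). In these 3 core subunits the times did not overlap. Ndufa9, which joins this part to the membrane arm, had 79.6 CPM at 24 h against 102 at 0 h in Vp16-TRF1ΔN cells, and 81.2 at 24 h against 107 at 0 h in TRF1ΔN cells, a log2 change of -0.38 ± 0.063 (SE, adjusted p = 0.0104).

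Most membrane-arm subunits of complex I also fell. Ndufb10 had 56.1 CPM at 24 h against 86.9 at 0 h in Vp16-TRF1ΔN cells, and 57.4 at 24 h against 86.1 at 0 h in TRF1ΔN cells, and its log2 change of -0.61 ± 0.064 (SE, adjusted p = 0.00353) was the next lowest in the complex after Ndufa5. Ndufb11, encoded on the X chromosome, had 41.4 CPM at 24 h against 57.9 at 0 h in Vp16-TRF1ΔN cells, and 38.4 at 24 h against 55.9 at 0 h in TRF1ΔN cells, a log2 change of -0.51 ± 0.069 (SE, adjusted p = 0.00591). Ndufb6 had 27.4 CPM at 24 h against 37.6 at 0 h in Vp16-TRF1ΔN cells, and 31.6 at 24 h against 42.1 at 0 h in TRF1ΔN cells, a log2 change of -0.43 ± 0.072 (SE, adjusted p = 0.0104). None of these 3 had overlapping times. Ndufb8 had 99.5 CPM at 24 h against 138 at 0 h in Vp16-TRF1ΔN cells, and 109.8 at 24 h against 139.6 at 0 h in TRF1ΔN cells, a log2 change of -0.41 ± 0.069 (SE, adjusted p = 0.0106). Ndufb7 had 52.6 CPM at 24 h against 66.1 at 0 h in Vp16-TRF1ΔN cells, and 49.8 at 24 h against 65.4 at 0 h in TRF1ΔN cells, a log2 change of -0.36 ± 0.066 (SE, adjusted p = 0.0137). Ndufb5 had 69.5 CPM at 24 h against 85.1 at 0 h in Vp16-TRF1ΔN cells, and 68.4 at 24 h against 86.1 at 0 h in TRF1ΔN cells, a log2 change of -0.31 ± 0.064 (SE, adjusted p = 0.0182). The 24 h levels of Ndufb7 and Ndufb5 were slightly higher in Vp16-TRF1ΔN than in TRF1ΔN cells and those of Ndufb8 lower, each difference smaller than the one between times.
Nearer the joint of the arms, Ndufa8 had 56.6 CPM at 24 h against 72.7 at 0 h in Vp16-TRF1ΔN cells, and 56.7 at 24 h against 77.2 at 0 h in TRF1ΔN cells, a log2 change of -0.40 ± 0.067 (SE, adjusted p = 0.0104). Ndufa1, also encoded on the X chromosome, had 25.04 CPM at 24 h against 32.3 at 0 h in Vp16-TRF1ΔN cells, and 23.5 at 24 h against 31.5 at 0 h in TRF1ΔN cells, a log2 change of -0.40 ± 0.076 (SE, adjusted p = 0.0150). Ndufa3 had 52.6 CPM at 24 h against 68.2 at 0 h in Vp16-TRF1ΔN cells, and 55.5 at 24 h against 70.9 at 0 h in TRF1ΔN cells, a log2 change of -0.36 ± 0.064 (SE, adjusted p = 0.0123). Ndufa13, also known as GRIM-19 and studied in cell death, followed them. It had 101 CPM at 24 h against 121 at 0 h in Vp16-TRF1ΔN cells, and 94.7 at 24 h against 121 at 0 h in TRF1ΔN cells, a log2 change of -0.31 ± 0.066 (SE, adjusted p = 0.0210). The paired small subunits Ndufc1 and Ndufc2 fell by similar amounts. Ndufc1 had 25.2 CPM at 24 h against 33.1 at 0 h in Vp16-TRF1ΔN cells, and 26.2 at 24 h against 32.8 at 0 h in TRF1ΔN cells, a log2 change of -0.36 ± 0.076 (SE, adjusted p = 0.0201). Ndufc2 had 43.0 CPM at 24 h against 53.8 at 0 h in Vp16-TRF1ΔN cells, and 46.8 at 24 h against 57.3 at 0 h in TRF1ΔN cells, a log2 change of -0.31 ± 0.067 (SE, adjusted p = 0.0218). The remaining complex I members did not pass: Ndufa6, Ndufb3, Ndufa11, Ndufb9, Ndufa10, Ndufb2, Ndufs5, Ndufa7 and Ndufb4 had log2 changes of -0.15 to 0.076, with adjusted p of 0.131 to 0.957 (edgeR).

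Ndufa4, grouped here by its symbol but known as a subunit of complex IV, had 153 CPM at 24 h against 187 at 0 h in Vp16-TRF1ΔN cells, and 166 at 24 h against 208 at 0 h in TRF1ΔN cells. Its log2 change was -0.31 ± 0.062 (SE, adjusted p = 0.0174), and both 24 h libraries lay below both 0 h libraries. Ndufab1, the acyl carrier protein that is part of complex I but falls outside the symbol rule, had 15.6 CPM at 24 h and 18.2 at 0 h in Vp16-TRF1ΔN cells, and 13.8 at 24 h and 17.9 at 0 h in TRF1ΔN cells, and its change of -0.30 ± 0.094 (SE, adjusted p = 0.0581) did not pass.

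Complex III, which oxidises ubiquinol, had 5 of 9 members lower, 1 higher and 3 not called, with a median of -0.32. The electron carriers fell. Uqcrfs1, the Rieske iron-sulphur protein, had 109.5 CPM at 24 h against 152 at 0 h in Vp16-TRF1ΔN cells, and 107 at 24 h against 155 at 0 h in TRF1ΔN cells, a log2 change of -0.50 ± 0.064 (SE, adjusted p = 0.00523). Cyc1, cytochrome c1, had 82.3 CPM at 24 h against 118 at 0 h in Vp16-TRF1ΔN cells, and 99.1 at 24 h against 141 at 0 h in TRF1ΔN cells, a log2 change of -0.51 ± 0.062 (SE, adjusted p = 0.00474). In both, the times did not overlap, and Cyc1 was lower in Vp16-TRF1ΔN than in TRF1ΔN cells at each time. Among small accessory subunits, Uqcr10 had 63.6 CPM at 24 h against 97.4 at 0 h in Vp16-TRF1ΔN cells, and 68.8 at 24 h against 97.9 at 0 h in TRF1ΔN cells, a log2 change of -0.56 ± 0.068 (SE, adjusted p = 0.00474). Uqcr11 had 68.9 CPM at 24 h against 95.004 at 0 h in Vp16-TRF1ΔN cells, and 69.3 at 24 h against 95.5 at 0 h in TRF1ΔN cells, a log2 change of -0.46 ± 0.063 (SE, adjusted p = 0.00607). Uqcrb had 21.7 CPM at 24 h against 25.2 at 0 h in Vp16-TRF1ΔN cells, and 21.0 at 24 h against 28.0 at 0 h in TRF1ΔN cells, a log2 change of -0.32 ± 0.091 (SE, adjusted p = 0.0455). Uqcrb shared 43.4% of its words with other genes, and DESeq2 did not call it (adjusted p = 0.203). Uqcrq and the hinge protein gene Uqcrh had changes of -0.20 ± 0.069 (SE, adjusted p = 0.0757) and -0.14 ± 0.065 (SE, adjusted p = 0.136), which did not pass.

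The core subunits Uqcrc1 and Uqcrc2, relatives of mitochondrial processing peptidases, were not among those called lower. Uqcrc1 (chr9:108936633-108949623, plus strand) had 214 CPM at 24 h and 191 at 0 h in Vp16-TRF1ΔN cells, and 261 at 24 h and 203 at 0 h in TRF1ΔN cells. Both 24 h libraries were above both 0 h libraries, and the log2 change was 0.26 ± 0.077 (SE, adjusted p = 0.0496). That call sat just inside the threshold and was lost in DESeq2's test (adjusted p = 0.104) and in 4 other settings. Uqcrc2 had 188 CPM at 24 h and 199.9 at 0 h in Vp16-TRF1ΔN cells, and 200.3 at 24 h and 204 at 0 h in TRF1ΔN cells, and its change of -0.057 ± 0.063 (SE, adjusted p = 0.495) did not pass. Cycs, the soluble carrier from complex III to complex IV that also triggers apoptosis when released, had 6.48 CPM at 24 h against 9.84 at 0 h in Vp16-TRF1ΔN cells, and 8.39 at 24 h against 10.6 at 0 h in TRF1ΔN cells. It was low in every library (222, 424, 353 and 506 counts in that order) and fell by 0.47 on the log2 scale (SE 0.13, adjusted p = 0.0420, edgeR), a call that DESeq2 did not make (adjusted p = 0.181).

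Complex IV, cytochrome c oxidase, had the smallest share of calls: 3 of 12 tested members fell, none rose and 9 did not pass, and the median was -0.15. Over all genes tested the share called lower was 25.4%, so the complex IV share was near the background. Cox8a (chr19:7215153-7217616, minus strand) had 94.8 CPM at 24 h against 151 at 0 h in Vp16-TRF1ΔN cells, and 108 at 24 h against 156 at 0 h in TRF1ΔN cells, a log2 change of -0.60 ± 0.070 (SE, adjusted p = 0.00439). Cox7a2 had 123 CPM at 24 h against 171 at 0 h in Vp16-TRF1ΔN cells, and 129 at 24 h against 179 at 0 h in TRF1ΔN cells, a log2 change of -0.47 ± 0.062 (SE, adjusted p = 0.00556). Cox6a1 had 166 CPM at 24 h against 207 at 0 h in Vp16-TRF1ΔN cells, and 183 at 24 h against 220.0 at 0 h in TRF1ΔN cells, a log2 change of -0.29 ± 0.063 (SE, adjusted p = 0.0209). In these 3 the times did not overlap, and DESeq2 did not call Cox6a1 (adjusted p = 0.0572).
The other large nuclear subunits showed small differences. Cox4i1, which binds adenine nucleotides, had 342 CPM at 24 h and 373 at 0 h in Vp16-TRF1ΔN cells, and 352 at 24 h and 379 at 0 h in TRF1ΔN cells, with a change of -0.12 ± 0.063 (SE, adjusted p = 0.193). Cox5a had 121 CPM at 24 h and 121 at 0 h in Vp16-TRF1ΔN cells, and 127 at 24 h and 129.6 at 0 h in TRF1ΔN cells, with a change of -0.0085 ± 0.062 (SE, adjusted p = 0.920). Cox5b had 49.1 CPM at 24 h and 55.9 at 0 h in Vp16-TRF1ΔN cells, and 47.9 at 24 h and 54.5 at 0 h in TRF1ΔN cells, with a change of -0.19 ± 0.066 (SE, adjusted p = 0.0778). None of them passed, although both 24 h libraries of Cox4i1 and Cox5b were below both 0 h libraries. Cox6c, Cox7b, Cox6b1 and Cox7c had changes of -0.038, -0.16, -0.14 and -0.043 with adjusted p of 0.102 to 0.869 (edgeR). Cox7a2l, a factor that joins complexes III and IV into supercomplexes, had 118 CPM at 24 h and 109 at 0 h in Vp16-TRF1ΔN cells, and 114 at 24 h and 103 at 0 h in TRF1ΔN cells. Its 24 h libraries were both above its 0 h libraries, but its change of 0.12 ± 0.062 (SE, adjusted p = 0.164) did not pass.

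Of the paired isoforms of complex IV that were measured, the widely expressed ones were above the tissue-restricted ones. Cox4i1 reached 362 CPM on average, while Cox4i2, the isoform of lung and of hypoxic cells, had 1, 0, 1 and 0 counts (Vp16-TRF1ΔN at 24 h and 0 h, then TRF1ΔN at 24 h and 0 h). Cox6b1 averaged 237 CPM, while Cox6b2, the testis isoform, had 0, 1, 1 and 0 counts. A count of 0 allows up to 3 counts, which is 0.0630 to 0.0875 CPM in these libraries, and covers counting error only. Per kilobase of exon, Cox7a2 averaged 159 CPM and Cox7a1, the heart and muscle isoform, 2.90 CPM. Cox7a1 had 1.46 CPM at 24 h and 1.67 at 0 h in Vp16-TRF1ΔN cells, and 1.28 at 24 h and 1.78 at 0 h in TRF1ΔN cells, and its change of -0.34 ± 0.23 (SE, adjusted p = 0.276) did not pass. The summed muscle markers given above, nearly all Tnnt2, were higher at 24 h, while this muscle isoform had no called change.

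Complex V, the ATP synthase, had the lowest median of the 5 complexes, -0.37, close to the -0.36 of complex II. Of its 17 members 10 fell, none rose and 7 were not called. Among members averaging at least 1 CPM, its median log2 ratio in Vp16-TRF1ΔN cells was -0.41, against -0.32 in complex II and -0.23 in complex III. In TRF1ΔN cells it was -0.38, against -0.42 and -0.41, so the order differed between the lines. In the catalytic head, Atp5a1 (subunit alpha) had 758 CPM at 24 h against 1062 at 0 h in Vp16-TRF1ΔN cells, and 809.7 at 24 h against 1105 at 0 h in TRF1ΔN cells, a log2 change of -0.47 ± 0.065 (SE, adjusted p = 0.00656). Atp5b (subunit beta, which holds the catalytic sites) had 1323 CPM at 24 h against 1709 at 0 h in Vp16-TRF1ΔN cells, and 1429 at 24 h against 1849 at 0 h in TRF1ΔN cells, a log2 change of -0.37 ± 0.066 (SE, adjusted p = 0.0122). These were the most abundant members, and both fell with no overlap between times. In the central stalk that turns within the head, Atp5c1 (gamma) had 229 CPM at 24 h against 311 at 0 h in Vp16-TRF1ΔN cells, and 215 at 24 h against 299 at 0 h in TRF1ΔN cells, a log2 change of -0.46 ± 0.063 (SE, adjusted p = 0.00629). Atp5d (delta) had 128 CPM at 24 h against 165 at 0 h in Vp16-TRF1ΔN cells, and 145 at 24 h against 176 at 0 h in TRF1ΔN cells, a log2 change of -0.33 ± 0.065 (SE, adjusted p = 0.0166). Atp5e (epsilon) had 60.2 CPM at 24 h against 91.1 at 0 h in Vp16-TRF1ΔN cells, and 58.2 at 24 h against 81.0 at 0 h in TRF1ΔN cells, a log2 change of -0.54 ± 0.070 (SE, adjusted p = 0.00551). All 3 stalk subunits thus fell, with both 24 h libraries below both 0 h libraries.
In the side stalk that holds the head still, Atp5f1 (subunit b) had 150.3 CPM at 24 h against 212 at 0 h in Vp16-TRF1ΔN cells, and 159.6 at 24 h against 225 at 0 h in TRF1ΔN cells, a log2 change of -0.49 ± 0.062 (SE, adjusted p = 0.00504). Atp5o (the oligomycin sensitivity protein) had 113 CPM at 24 h against 159.9 at 0 h in Vp16-TRF1ΔN cells, and 127 at 24 h against 176 at 0 h in TRF1ΔN cells, a log2 change of -0.48 ± 0.062 (SE, adjusted p = 0.00548). Atp5h (subunit d) and Atp5j did not pass, with changes of -0.20 ± 0.070 (SE, adjusted p = 0.0764) and -0.18 ± 0.064 (SE, adjusted p = 0.0790). Of these side-stalk subunits only Atp5f1 and Atp5o were called, while all had negative changes, and differences between them were not tested. Among the small membrane subunits that shape the enzyme's dimers, Atp5k (subunit e) had 66.8 CPM at 24 h against 91.9 at 0 h in Vp16-TRF1ΔN cells, and 76.4 at 24 h against 101 at 0 h in TRF1ΔN cells, a log2 change of -0.43 ± 0.064 (SE, adjusted p = 0.00741). Atp5j2 (subunit f) had 30.1 CPM at 24 h against 41.9 at 0 h in Vp16-TRF1ΔN cells, and 33.9 at 24 h against 44.5 at 0 h in TRF1ΔN cells, a log2 change of -0.43 ± 0.074 (SE, adjusted p = 0.0111). Both fell without overlap between times. Atp5l (subunit g) had only 5, 4, 12 and 12 counts in the order given for Cox4i2, and its change of 0.32 ± 0.47 (SE, adjusted p = 0.616) did not pass. Atp5mpl had a change of -0.23 ± 0.077 (SE, adjusted p = 0.0652). Atp5s, grouped in complex V by its symbol alone, had a change of -0.28 ± 0.16 (SE, adjusted p = 0.204).

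Subunit c, which forms the proton-driven ring, is made from 3 genes that encode the same mature protein. Atp5g3 had 136 CPM at 24 h against 213 at 0 h in Vp16-TRF1ΔN cells, and 158 at 24 h against 225 at 0 h in TRF1ΔN cells, and its log2 change of -0.58 ± 0.070 (SE, adjusted p = 0.00474) was the lowest of complex V. Atp5g1 had 5.84 CPM at 24 h and 6.89 at 0 h in Vp16-TRF1ΔN cells, and 7.55 at 24 h and 8.23 at 0 h in TRF1ΔN cells. Atp5g2 had 2.74 CPM at 24 h and 2.55 at 0 h in Vp16-TRF1ΔN cells, and 2.90 at 24 h and 2.64 at 0 h in TRF1ΔN cells. Only Atp5g3 was called, and its times did not overlap, whereas the changes of Atp5g1 and Atp5g2 were -0.18 ± 0.13 (SE, adjusted p = 0.305) and 0.12 ± 0.18 (SE, adjusted p = 0.619). Per kilobase of exon, Atp5g3 averaged 84.0 CPM, Atp5g2 1.62 CPM and Atp5g1 1.45 CPM, but the last pair share most of their sequence with other genes. The gene of the inhibitor that stops the enzyme running backwards, Atpif1, carries another symbol and is not a member. It had 158 CPM at 24 h against 203 at 0 h in Vp16-TRF1ΔN cells, and 146 at 24 h against 191 at 0 h in TRF1ΔN cells, and its change of -0.37 ± 0.062 (SE, adjusted p = 0.0103) passed. Usmg5, a small ATP synthase subunit kept under another name, had 2.77 CPM at 24 h and 2.62 at 0 h in Vp16-TRF1ΔN cells, and 4.80 at 24 h and 3.02 at 0 h in TRF1ΔN cells, and its change of 0.39 ± 0.22 (SE, adjusted p = 0.204) did not pass. Dmac2 had a change of 0.16 ± 0.082 (SE, adjusted p = 0.182), which did not pass, and Cyct, the testis form of cytochrome c, had 0, 0, 0 and 2 counts.

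Levels per kilobase of exon spanned the members widely. Atp5b was highest at 372 CPM per kilobase, followed by Cox6b1 at 334, Atp5a1 at 298, Cox6a1 at 277 and Cox4i1 at 233. The order depends on the length used: by the length of the coding transcript Atp5b remained highest at 823, followed by Cox4i1 at 485 and Ndufa4 at 395 CPM per kilobase. Sdhd was highest within complex II at 141 CPM per kilobase of exon, against 66.8 for Sdha, 41.1 for Sdhb and 36.8 for Sdhc. Cycs was far lower at 2.59 CPM per kilobase, and 28.5% of its words lie in other genes.

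The fall was present in each line taken alone. With 1 library per group these ratios have no test and carry 95% counting intervals only. Of 78 members averaging at least 1 CPM, 68 had lower levels at 24 h in Vp16-TRF1ΔN cells and 72 in TRF1ΔN cells, and the median log2 ratios were -0.29 and -0.32. Over all 11777 genes at that level the medians were -0.0073 and -0.023. No member reached a 2-fold ratio in either line, where 9.09% of all genes were at least 2-fold lower in Vp16-TRF1ΔN cells and 10.9% in TRF1ΔN cells. At 1.5-fold, 8 members were counted as lower in Vp16-TRF1ΔN cells and 2 in TRF1ΔN cells, where 16.2% and 18.9% of all genes were.
In Vp16-TRF1ΔN cells the lowest 24 h over 0 h ratios were 0.549 (0.529 to 0.569) for Sdhd, 0.604 (0.556 to 0.656) for Ndufa5 and 0.629 (0.603 to 0.656) for Cox8a, and the highest 1.14 (0.896 to 1.44) for Cox7c, 1.12 (1.09 to 1.16) for Uqcrc1 and 1.12 (0.997 to 1.26) for Ndufb4. In TRF1ΔN cells the lowest were 0.530 (0.513 to 0.548) for Sdhd, 0.6004 (0.559 to 0.645) for Ndufa5 and 0.667 (0.634 to 0.701) for Ndufb10, and among the highest were 1.28 (1.247 to 1.32) for Uqcrc1 and 1.10 (1.06 to 1.14) for Cox7a2l. Sdhd and Ndufa5 were thus lowest in both lines, and Uqcrc1 was among the 3 highest in both.

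**Figure D3:**
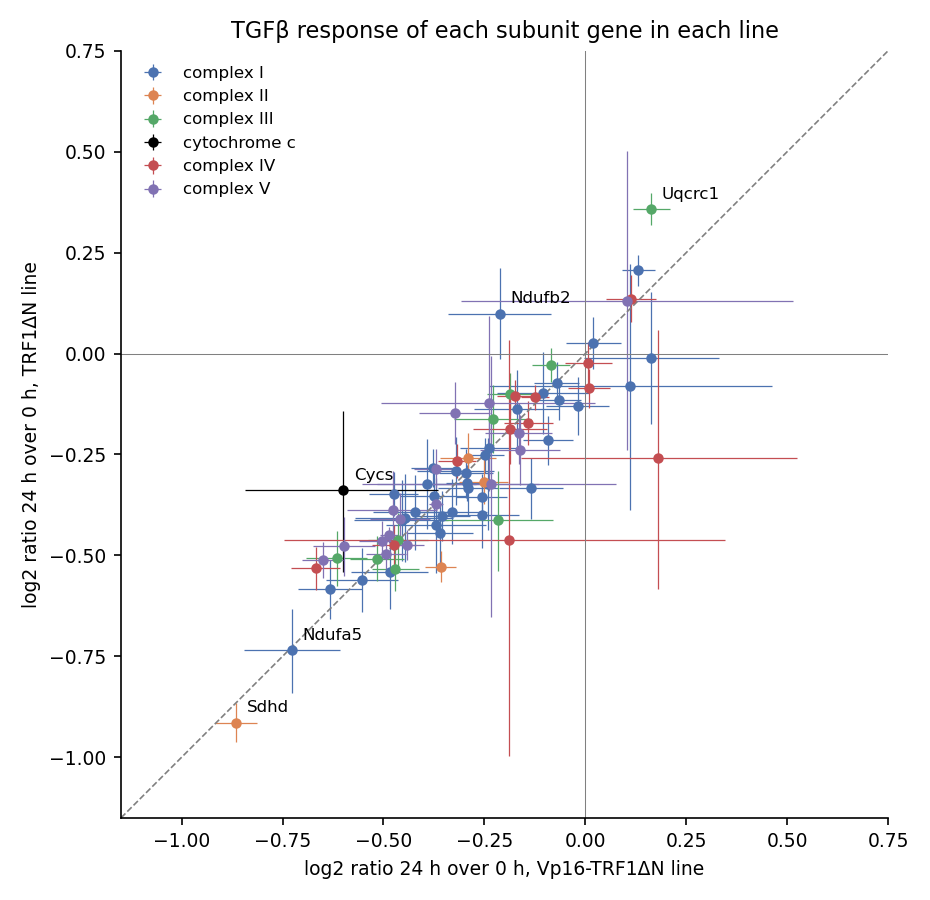
The log2 ratio of 24 h TGFβ over 0 h in Vp16-TRF1ΔN cells (x axis) and in TRF1ΔN cells (y axis) of the 78 members averaging at least 1 CPM, coloured by complex, with 95% counting intervals; the dashed line marks equal ratios. Most points lie below 0 on both axes and near the dashed line, and Ndufb2 and Uqcrc1 are among the 40 members above it.

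The responses in the lines were set against each other without a test. The difference of log2 ratios (Vp16-TRF1ΔN minus TRF1ΔN) had a median of -0.0011 over the 78 members, with 38 positive and 40 negative, and 22 had a Poisson interval that excluded 0, 8 above and 14 below. Over all 11777 genes at that level the interval excluded 0 in 41.0%. Ndufb2, a small subunit of the far membrane arm, had the lowest difference: it had 24.5 CPM at 24 h and 28.4 at 0 h in Vp16-TRF1ΔN cells, and 29.3 at 24 h and 27.4 at 0 h in TRF1ΔN cells, a difference of -0.31 (-0.48 to -0.14). Its ratios had opposite signs in the lines, and its exons overlap those of Braf. Cycs had a difference of -0.26 (-0.57 to 0.046) and Uqcrc1 of -0.19 (-0.25 to -0.13). The highest differences were those of Cox7c at 0.44 (-0.016 to 0.89), Cox7a1 at 0.27 (-0.44 to 0.99) and Ndufv3 at 0.20 (0.090 to 0.31). Of these 6 members, Ndufb2, Uqcrc1 and Ndufv3 had intervals that excluded 0, which covers counting error and not differences between cultures.

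No member was called different between the Vp16-TRF1ΔN and TRF1ΔN lines. Averaged over the times, 0 of 79 members were called by edgeR's quasi-likelihood test, where 0.0% of all 14305 genes were called (1779 had an unadjusted p under 0.05), and DESeq2 called none of the members either, with 12 genes higher and 34 lower over the whole table. Of the members, 2 had an unadjusted p under 0.05. Cyc1 had 82.3 CPM in Vp16-TRF1ΔN against 99.1 CPM in TRF1ΔN cells at 24 h, and 118 against 141 CPM at 0 h, a log2 difference of -0.26 ± 0.062 (SE, adjusted p = 0.397). Ndufa6, an accessory subunit of complex I, had 109 CPM in Vp16-TRF1ΔN against 92.1 CPM in TRF1ΔN cells at 24 h, and 117 against 107 CPM at 0 h, a log2 difference of 0.19 ± 0.068 (SE, adjusted p = 0.399). Both kept their direction at each time, and neither passed the correction.
The median difference over members was -0.060, with 60 negative and 19 positive. Over all genes tested it was -0.0074, with 7357 negative and 6948 positive, and over genes averaging at least 10 CPM it was -0.017. By complex it was -0.12 in complex V, -0.060 in complex III, -0.043 in complex I, -0.038 in complex IV and -0.012 in complex II. Within complexes the lowest and highest tested members were Ndufb6 (-0.18) and Ndufa6 (0.19) in complex I, Sdhb (-0.13) and Sdha (0.12) in complex II, Cyc1 (-0.26) and Uqcrh (0.032) in complex III, and Cox8a (-0.12) and Cox7a2l (0.063) in complex IV. In complex V they were Atp5l (-1.17, with an SE of 0.49 and at most 12 counts) and Atp5s (0.30).
At each time alone, no member averaging at least 1 CPM was 2-fold lower in Vp16-TRF1ΔN cells. Of all genes at that level 1.18% were at 24 h and 0.416% at 0 h. Among members averaging at least 1 CPM, the extreme ratios at 24 h were 0.772 (0.650 to 0.916) for Cycs, 0.773 (0.644 to 0.925) for Atp5g1 and 0.820 (0.796 to 0.845) for Uqcrc1 on the low side, and 1.27 (1.0003 to 1.62) for Atp5s, 1.19 (0.939 to 1.52) for Cox7c and 1.19 (1.14 to 1.24) for Ndufa6 on the high side. At 0 h they were 0.829 (0.666 to 1.03) for Ndufs5, 0.835 (0.805 to 0.866) for Cyc1 and 0.837 (0.718 to 0.976) for Atp5g1, and 1.20 (0.9798 to 1.46) for Atp5s, 1.12 (1.08 to 1.18) for Atp5e and 1.09 (1.05 to 1.13) for Ndufa6. Atp5g1 was low and Atp5s and Ndufa6 high at both times.

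Lists of genes that build the chain and feed it also had negative medians. Their shares called lower stand against 25.4% over all genes tested and 29.7% over genes averaging at least 10 CPM. Of 48 tested assembly factors 16 fell (33.3%) and 1 rose, a share near that background, with a median log2 change of -0.27. Ndufaf6, a complex I assembly factor, was lowest at -0.72 ± 0.17 (SE, adjusted p = 0.0291), and Uqcc2, of complex III, had -0.59 ± 0.086 (SE, adjusted p = 0.00723). Cox17, the copper chaperone of complex IV, was the one that rose, by 0.31 ± 0.091 (SE, adjusted p = 0.0477). DESeq2's test called 7 assembly factors lower and 0 higher, so the Cox17 call was lost. Of 77 mitochondrial ribosomal proteins 34 fell (44.2%) and none rose (median -0.23), with Mrps6 lowest at -0.94. Of 23 genes of protein import 9 fell (39.1%) and none rose (median -0.27), with Timm8a1 lowest at -1.29. Of 23 genes of the citrate cycle and pyruvate entry 10 fell (43.5%) and 1 rose (median -0.23).
In the citrate cycle list, fumarate hydratase (Fh1), which takes the product of complex II, had 76.5 CPM at 24 h against 117 at 0 h in Vp16-TRF1ΔN cells, and 75.02 at 24 h against 123 at 0 h in TRF1ΔN cells, a log2 change of -0.66 ± 0.066 (SE, adjusted p = 0.00319). The pyruvate dehydrogenase kinases, which switch off pyruvate entry, went apart. Pdk1 had 36.3 CPM at 24 h against 70.7 at 0 h in Vp16-TRF1ΔN cells, and 21.5 at 24 h against 63.5 at 0 h in TRF1ΔN cells, a log2 change of -1.26 ± 0.16 (SE, adjusted p = 0.00533). Pdk4 had 4.49 CPM at 24 h and 0.858 at 0 h in Vp16-TRF1ΔN cells, and 4.44 at 24 h and 0.672 at 0 h in TRF1ΔN cells, a log2 change of 2.55 ± 0.22 (SE, adjusted p = 0.00236). Pdk1 was lower and Pdk4 higher in both 24 h libraries than in both 0 h libraries.

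Of 18 regulators of mitochondrial biogenesis 6 fell, none rose and 12 did not pass (median -0.24). The share called lower, 33.3%, was near the 25.4% over all genes tested. Ppargc1a, the coactivator PGC-1α, had 6.42 CPM at 24 h against 12.1 at 0 h in Vp16-TRF1ΔN cells, and 1.83 at 24 h against 8.96 at 0 h in TRF1ΔN cells, a log2 change of -1.53 ± 0.35 (SE, adjusted p = 0.0251). Tfam, which packages and transcribes mitochondrial DNA, had 44.9 CPM at 24 h against 77.1 at 0 h in Vp16-TRF1ΔN cells, and 43.9 at 24 h against 81.8 at 0 h in TRF1ΔN cells, a log2 change of -0.84 ± 0.070 (SE, adjusted p = 0.00227). Nrf1, whose motif is marked in the promoters above, had 31.7 CPM at 24 h against 44.4 at 0 h in Vp16-TRF1ΔN cells, and 39.8 at 24 h against 45.9 at 0 h in TRF1ΔN cells, a log2 change of -0.34 ± 0.10 (SE, adjusted p = 0.0431). All 3 were lower at 24 h in each line without overlap. Gabpb2 (-0.72), Tfb1m (-0.76) and the nuclear receptor gene Esrra (-0.40) also fell, with adjusted p of 0.00251 to 0.0121 (edgeR). Gabpa, the DNA-binding partner of the GABP factor, did not pass, with 0.016 ± 0.062 (SE, adjusted p = 0.849), nor did Yy1, with -0.10 ± 0.067 (SE, adjusted p = 0.290).

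The subunits encoded in mitochondrial DNA went the other way. Of 7 measured, 6 rose, none fell and mt-Nd6 did not pass, with a median of 0.47. In complex IV, mt-Co1, the catalytic subunit, had 2462 CPM at 24 h and 1652 at 0 h in Vp16-TRF1ΔN cells, and 2325 at 24 h and 1496 at 0 h in TRF1ΔN cells, a log2 change of 0.61 ± 0.068 (SE, adjusted p = 0.00397). Of the 12 tested nuclear members grouped in complex IV by symbol, 3 fell and none rose, and Ndufa4, grouped elsewhere by its symbol, fell as well. In complex I, mt-Nd5 had 322 CPM at 24 h and 187 at 0 h in Vp16-TRF1ΔN cells, and 274 at 24 h and 164 at 0 h in TRF1ΔN cells, a log2 change of 0.76 ± 0.063 (SE, adjusted p = 0.00223). In complex III, mt-Cytb had 1171 CPM at 24 h and 996 at 0 h in Vp16-TRF1ΔN cells, and 1183 at 24 h and 878 at 0 h in TRF1ΔN cells, a log2 change of 0.33 ± 0.080 (SE, adjusted p = 0.0287). The summed mitochondrially encoded subunits were 5870.4 CPM at 24 h against 4324 CPM at 0 h in Vp16-TRF1ΔN cells, and 5531 CPM at 24 h against 3888 CPM at 0 h in TRF1ΔN cells. All mitochondrial RNA, mainly the ribosomal mt-Rnr2, took 15.7% and 13.3% of the counts at 24 h in Vp16-TRF1ΔN and TRF1ΔN cells, and 11.4% and 10.2% at 0 h. With these genes left out of the scaling, 48 nuclear members fell and their median was -0.33, while 3814 of 14309 genes were called lower over the whole table. The part of the mitochondrial RNA share in the subunit results was not tested further.

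**Figure D4:**
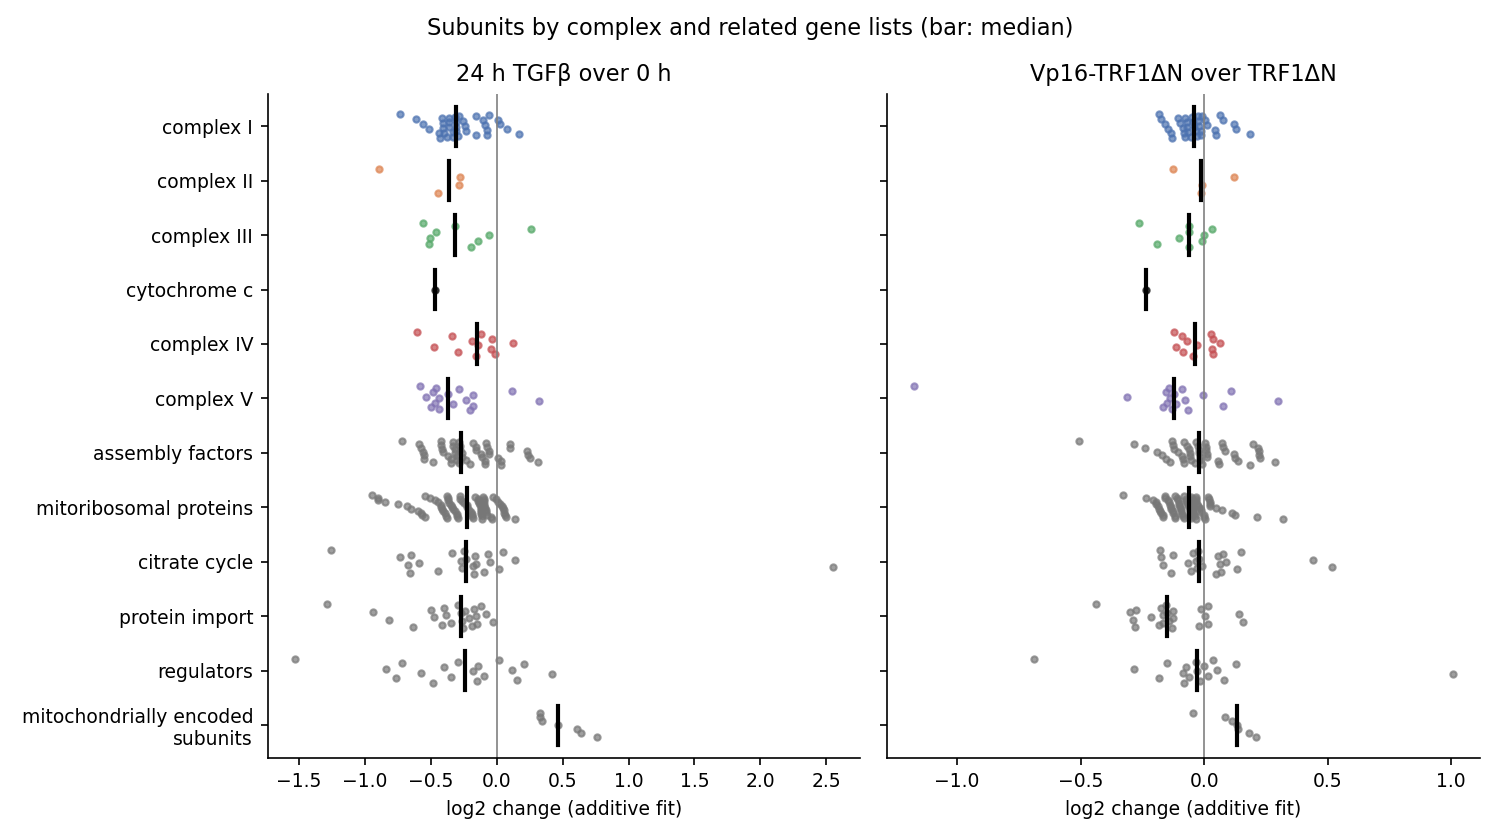
Log2 changes from the additive edgeR fit for the members of each complex (coloured) and for related gene lists (grey), 1 point per tested gene and a bar at the median; 24 h TGFβ over 0 h on the left, Vp16-TRF1ΔN over TRF1ΔN on the right. With TGFβ the medians of the 5 complexes lie between -0.37 and -0.15, cytochrome c lies at -0.47 and that of the mitochondrially encoded subunits at 0.47, while between the lines the complexes lie between -0.12 and -0.012 and cytochrome c at -0.23.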

How the data were processed

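Reads had been examined with FastQC, aligned to mm10 with STAR, counted per gene with HTSeq and normalized with DESeq2, per the submitters' processing notes. Versions, annotation release and strand setting were not given in the sources used here. For all tests the raw counts deposited by the authors were used. The authors also deposited log2 values, made from counts normalized by size factors with 1 added; this table was an alternative for the ratios between libraries. Symbols, positions and lengths came from GENCODE M21 for GRCm38. The 4 construct rows (0.0129% to 0.0582% of the counts) were left out.

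Counts were scaled with TMM and tested with edgeR 4.0.16 (quasi-likelihood, R 4.3.3) in an additive model of line and TGFβ over the 4 libraries, on the 14305 genes that passed filterByExpr, with Benjamini-Hochberg adjustment over all of them. It left 1 residual degree of freedom (3.39 prior degrees of freedom, common biological coefficient of variation 0.0931). SEs were obtained as absolute log2 change over the root of F. Whether the libraries stem from separate cultures was not stated. Ratios between 2 libraries used a prior count of 2, have no test and carry exact conditional (Clopper-Pearson) 95% intervals, and differences of responses carry Poisson intervals. Members were counted past 2-fold at a mean of 1 CPM or more with an interval that excluded 1. DESeq2 1.42.0, other scalings and other filters were alternatives. The fit was tested on simulated counts.

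Members and lists were chosen with earlier results of these data known. The members named in full are those called, the extremes of each complex, the subunits that carry redox centres or catalysis and the tissue isoforms. The values of 1 member are not reported here, although the counts and medians include it. Ndufa4l2 and Ndufb1-ps were not analysed here, and Dmac2, Usmg5 and Cyct are relatives outside the symbol rule. The 3 settings (members with shared sequence left out, members with overlapping exons left out, and length of the coding transcript) were added after the data were seen.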

Additional observations from a re-analysis of the deposited data

How the results depend on the processing

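With 1 library per group no library could be left out of the test, and the additive model already sets the 24 h library of a line against its own 0 h library. No paired analysis by replicate number was possible because the labels give none. The count of members called higher with TGFβ rested on Uqcrc1 alone. It was 0 with DESeq2's Wald test, with median-of-ratios scaling, with a minimum mean of 1 CPM, with mitochondrially encoded genes left out of the scaling and without a term for the line, and 2 with upper-quartile scaling. The count of members called lower was 47 and lay between 32 (DESeq2) and 48 (mitochondrially encoded genes left out) over these settings, with 38 without a term for the line and 42 with upper-quartile scaling. The members' median TGFβ change of -0.31 was -0.24 with upper-quartile scaling, -0.33 with mitochondrially encoded genes left out and -0.34 over the 49 tested members that share little sequence with other genes, of which 33 fell and 1 rose. Upper-quartile scaling also turned the balance over all genes to 3959 higher and 3274 lower, against 3305 and 3631. Among the 58 tested members with no overlapping exons 34 fell and 1 rose. The median line difference of -0.060 was -0.064 with median-of-ratios scaling, -0.042 with upper-quartile scaling and -0.071 with mitochondrially encoded genes left out. Apart from that balance over all genes, the members' median TGFβ change, their median line difference and the called members named in the text kept their direction under these alternatives. The line median of complex II, -0.012, is smaller than the shift of the members' line median between scalings, so its sign is not settled. The causes were not tested. Members under about 10 CPM, such as Atp5l, Atp5g1, Atp5g2, Atp5s, Cox7a1, Cox7c, Cycs and Ndufs5, have SEs of 0.13 or more.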
